A study of Drosophila melanogaster with 4 samples.

Results

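Of the 2949 peaks of the tagged posterior Hox protein Abd-B in this series, 393 (13.3%) lay on the left arm of the second chromosome, 2L. They were taken by their arm alone, and all 393 are described here. The material was wandering third-instar (L3) larvae of Drosophila melanogaster, sex not known. Per the labels, all libraries came from the strain Abd-B-GFP with the genotype w; PBac{y[+]-attP-3B}VK00037. Its transgene carries genomic Abd-B with GFP, a green fluorescent protein, in place of the stop codon. The 2 ChIP libraries were made with a rabbit polyclonal antibody against GFP (ab290), and the 2 input libraries are total DNA of the same strain. No group is free of the transgene, and the collection protocol names other flies, y; bw cn sp, than the strain label. Whether the animals also kept their own Abd-B is not stated, and DNA came from whole larvae, so that tissues cannot be told apart.

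Abd-B is the most posterior Hox gene of the bithorax complex. Hox proteins bind DNA through a homeodomain, and Abd-B gives posterior abdominal segments and the genital disc their identity. The end of the L3 stage is also when pulses of the steroid ecdysone start metamorphosis, and several genes of that response lie on 2L. ChIP followed by sequencing finds where a protein is crosslinked to chromatin, directly or through partners, and does not show which gene a bound site acts on.

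The deposited data are 1 list with 1 score per peak and no value per library. No replicate error, depth or test between libraries can therefore be had, and every value below describes this list, in which peaks are not replicates of a condition. The score is the authors' own, on a scale that is not named. It serves here only to rank peaks within the list. Positions are on FlyBase release 5. Gene names come from a RefSeq table on release 6, which differs little from release 5 over most of 2L. It gives each gene's span but neither strand nor exons. A gene end below is therefore either end of its span, and exons and introns were not told apart.

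Whether peaks and genes could be set side by side was checked first. Unshifted, 140 of the 393 peaks lay within 500 bp of an end of a protein-coding gene. When the peaks were moved by 2 kb or more, up to 20 kb either way, the number had a median of 90 and never passed 112. Of all moves tried in steps of 100 bp, none gave more than the positions as given, and a move of 100 bp gave as many. The peaks were then split along the arm into 5 parts of 78 or 79. Up to 4614639 the number at no shift was 37, against a median of 20 over all shifts. From 4802451 to 8142933 it was 40 against 21, and from 8279433 to 12824443 it was 27 against 21. It was 16 against 14 from 13026857 to 16533649 and 20 against 14 beyond. The first part had its highest number at no shift. The second reached 41 with the peaks moved by 100 bp, and the last 3 reached 31, 23 and 23, in order along the arm, first at moves of 1 kb or more. The count was thus highest at or beside the positions as given up to 8142933, and not beyond. Distances to genes further on rest on the small difference between the releases.

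**Figure D1:**
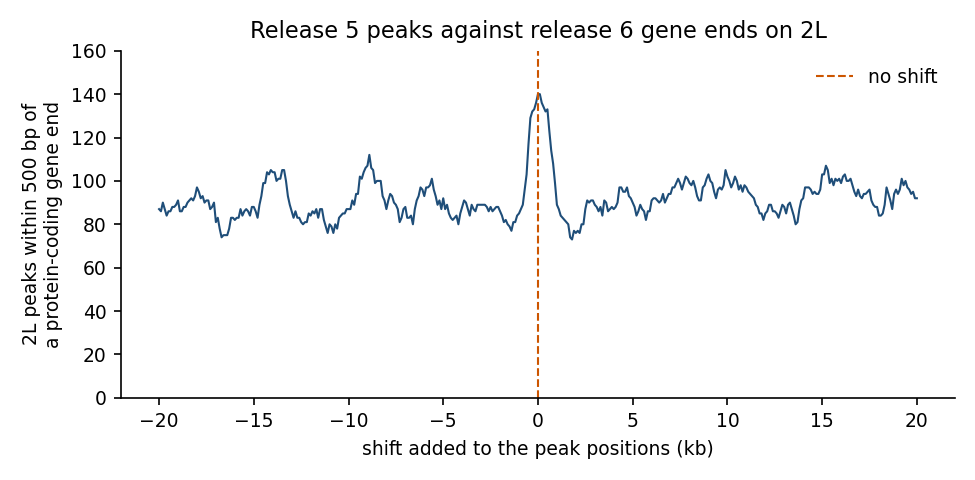
Number of the 393 2L peaks within 500 bp of a protein-coding gene end (vertical axis) when all peaks are moved by the distance on the horizontal axis (kb). The highest count, 140, is at no shift (dashed line) and at 100 bp, and moves of 2 kb or more give at most 112.

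Peaks on 2L were narrow and mostly of modest score. The median width was 342 bp (95% order-statistic interval 319 to 364), with quartiles of 256 and 471 bp and extremes of 200 and 2846 bp. The median score was 13.6 (95% interval 13.0 to 14.5) and scores ran from 6.66 to 105. Only 15 peaks scored above 50 and 1 above 100. Together the peaks covered 157.4 kb, or 0.690% of the arm up to its last peak. Wider peaks scored higher, with Spearman's rho of 0.63 across the 393 peaks. This is given as a description, since both values come from the same calls.

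Set beside the other large arms, 2L was the sparsest in peaks for its extent, with 17.2 per Mb, against 25.1 on 2R, 22.0 on 3L, 25.0 on 3R and 21.4 on X. Median scores were 13.6 on 2L and 13.0 to 14.2 on those arms, and median widths 342 bp and 336 to 351.5 bp. The share of peaks with a neighbour no more than 5 kb away was 46.1% on 2L and 49.2 to 52.0% there. These differences were not tested here.

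The highest score, 105, belonged to a peak of 889 bp from 8825150 to 8826038 at an end of SoxN, which encodes a Sox transcription factor of the early nervous system. The nearest other protein-coding genes were CG42710 at 42.65 kb on one side and CG32986 at 36.74 kb on the other. A pair of neighbouring peaks inside vri had scores of 73.0 and 71.1, from 5291990 to 5292685 and from 5292822 to 5293578. Vri is a bZIP repressor of the circadian clock that also acts in the ecdysone response. Inside nub, a POU-homeodomain gene of wing and limb growth, a peak of 912 bp from 12617762 to 12618673 scored 63.5, and a second one 99 bp from an end of nub scored 43.0. The peak inside nub also overlapped Ref2, and a peak in several gene spans is counted for each.

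The other 6 of the 10 highest scores lay elsewhere. The second highest, 87.0, spanned 1772 bp from 2201855 to 2203626 in the stretch between COX7AL2 and CG31668. The eighth, 60.7, spanned 1649 bp from 2196571 to 2198219. It had its midpoint inside COX7AL2 and reached past the gene's end into the same stretch. The fifth, 66.3, was a peak of 492 bp from 4811479 to 4811970 on the non-coding lncRNA:CR45297, 1.039 kb from CG15629. A peak of 60.7 from 3131678 to 3132105 lay in toc, which encodes a microtubule-associated protein. One of 56.4 from 7976632 to 7977129 lay in Snoo, the fly Sno co-repressor of TGF-beta signalling. The tenth, 52.9, from 16284335 to 16285024, lay in crp, a bHLH factor gene. Of these 10 peaks 8 had their midpoint in a gene and 4 lay within 500 bp of a gene end.

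The widest peak of 2L, 2846 bp from 5206898 to 5209743, overlapped the cytochrome P450 gene Cyp28d2 and an end of Msp300, a nesprin gene of muscle and nuclear envelope, with a score of 38.8. The next widest were the pair at COX7AL2 and CG31668 given above.

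Peaks were spread over the whole arm but unevenly. The 23 windows of 1 Mb held from 1 to 33 peaks, with a median of 16. The 3 fullest, from 5 to 6 Mb and from 14 to 15 Mb with 33 peaks each and from 11 to 12 Mb with 31, held 24.7% of the peaks. The emptiest, from 17 to 18 Mb, held 1 peak, of score 12.4, in Dif, an NF-kappaB factor of immunity. That peak borders the longest gap of the arm, 675 kb from 17431176 to 18106066. The number of peaks did not follow the number of genes. The window with the most protein-coding genes, 190 from 10 to 11 Mb, held 7 peaks, and the window from 14 to 15 Mb had 66 such genes beside its 33 peaks. Across the 22 full windows Spearman's rho of peaks and protein-coding genes was 0.07, a description in which all windows share the same libraries.

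**Figure D2:**
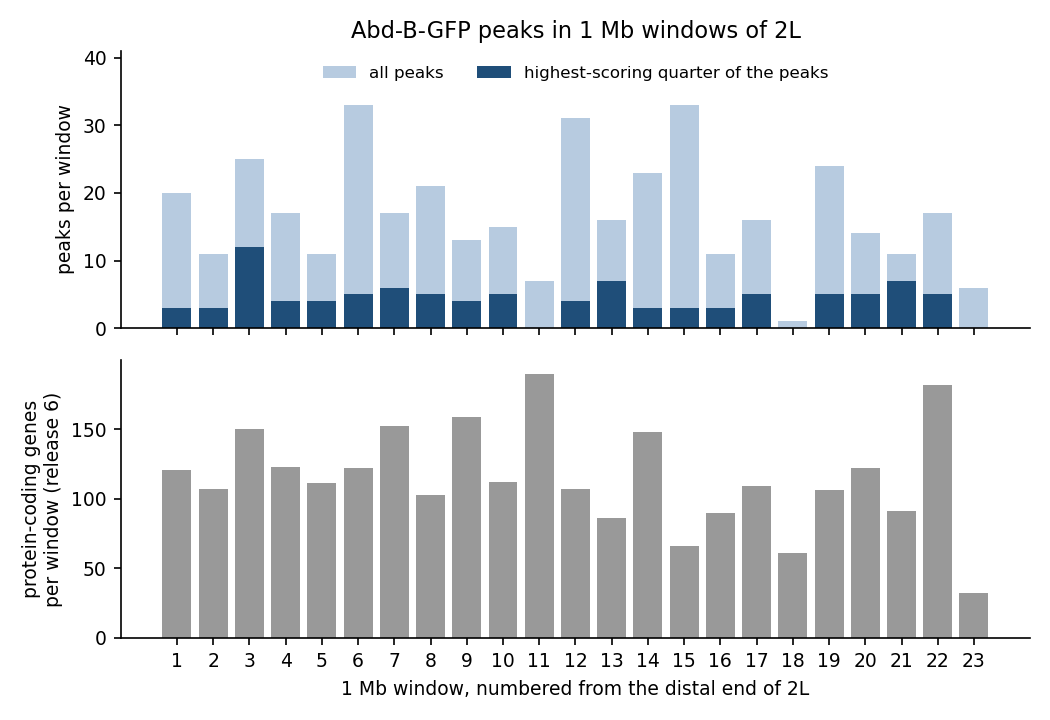
Peaks per 1 Mb window of 2L (upper panel, pale bars all 393 peaks, dark bars the 98 highest-scoring) and protein-coding genes per window from the release 6 table (lower panel), windows numbered from the distal end. Windows 6, 12 and 15 hold 33, 31 and 33 peaks, window 18 holds 1, and window 3 holds the most of the 98, with 12.

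The fullest windows differed in what lay under them. From 5 to 6 Mb, 28 of 33 peaks had their midpoint in a gene, 20 were near a gene end, and 25 had a neighbour within 5 kb. The leading gene was vri, with 6 peaks in its span of 22.3 kb. Their scores were 73.0, 71.1, 14.7, 10.7, 52.6 and 28.2 in order along the chromosome, so that 2 pairs of high scores, 3.39 to 4.26 kb and 16.5 to 17.8 kb from the lower-numbered end, stood apart from the low ones. A weaker peak of 13.7 touched the lower-numbered end. Close by, 3 peaks of 7.48, 13.8 and 7.95 lay in tkv, the type I receptor for the growth factor Dpp. A peak of 10.9 lay 359 bp from H15, a T-box factor gene.

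The same window held peaks of low score at genes of other kinds. 4 peaks of 7.62 to 10.0 sat in a run of 3.546 kb on the vitelline membrane genes Vm26Ab and Vm26Aa, which make eggshell proteins in the ovary. Gpdh1, the glycerol-3-phosphate dehydrogenase of flight muscle and fat body, held peaks of 17.0 and 11.8, and the profilin gene chic held peaks of 13.6 and 16.9.

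From 11 to 12 Mb, 26 of 31 peaks had their midpoint in a gene, and a single long gene took 10 of them. Samuel, with a span of 53.8 kb, held its peaks from 11015168 to 11061539, more than any other gene of 2L. Their scores ran from 9.11 to 29.6 with a median of 11.6, the highest at the far end. The ecdysone-responsive zinc finger gene crol held 4 peaks of 10.1, 12.0, 13.5 and 21.4 in 15.1 kb. At an end of salm, a zinc finger gene that patterns wing, trachea and eye under Dpp, lay a strong peak of 888 bp and score 43.3 from 11445445 to 11446332, and a second, 16.2, followed 1.874 kb beyond the gene. Its sister gene salr had no peak.

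From 14 to 15 Mb the picture was the reverse, with 9 of 33 peaks in genes. Of the 33, 30 fell between 14385317 and 14652192, a region of 267 kb (112 per Mb) picked out after its positions had been seen. It runs from elB past noc to osp. elB and noc are neighbouring zinc finger genes of leg, trachea and wing development, and osp is a long gene named for its wing posture phenotype. Peaks here were low, with a median score of 10.7 and a range from 6.84 to 30.7, and 23 of the 30 lay outside any gene. The highest, 30.7, from 14490109 to 14490833, was 26 bp from an end of noc, and the next, 30.6, was 786 bp from elB. Between noc and osp there were 15 peaks.

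Windows gained or lost rank with the score. Among the 98 highest-scoring peaks the fullest window was the one from 2 to 3 Mb, with 12. It held 25 peaks in all with a median score of 19.9. Besides the COX7AL2 stretch, it contained peaks at dpp, the BMP-type growth factor (13.6 at 62 bp from its end, 24.9 and 28.2 inside), at the TGF-beta family ligand daw (26.6), inside the Ets repressor gene aop (17.8 and 24.8) and inside the neuronal RNA-binding gene Rbp9 (32.4 and 32.5).

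Close spacing was common but short-ranged. Of the 393 peaks, 181 (46.1%, 95% Wilson interval 41.2 to 51.0, counting error only) had a neighbour at most 5 kb away. They formed 71 runs, of which 62 held 2 or 3 peaks and 9 held 4 or more. Gaps near the limit were few, 12 between 4 and 5 kb and 8 between 5 and 6 kb. The median gap was 20.3 kb.

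The longest run had 7 peaks in 10.2 kb, from 2193457 to 2203626. Peaks covered 51.4% of it, and their scores in order were 13.8, 60.7, 29.2, 10.9, 23.8, 14.1 and 87.0. It began in COX7AL2, named as a cytochrome c oxidase subunit 7A-like gene, and ended 95 bp from CG31668. 5 of its peaks touched no gene of the table.

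A run of 6 peaks from 12003161 to 12013890 surrounded Rh5, the opsin gene of blue-sensitive photoreceptors, which the larval eye uses. Its scores in order were 39.1, 13.5, 44.2, 23.2, 52.0 and 15.7. The peaks of 44.2 and 23.2 stood at either side of Rh5, 398 and 203 bp from its ends, and none lay inside it. Peaks covered 49.7% of the 10.7 kb. The flanking genes were Hacd1, 0.895 kb away, and Wdr81, 0.414 kb away.

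The other run of 6, from 5286569 to 5297514, was that of vri. Here peaks covered 28.7% of 10.9 kb, and the high pair stood 136 bp apart amid 4 peaks of 10.7 to 14.7.

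**Figure D3:**
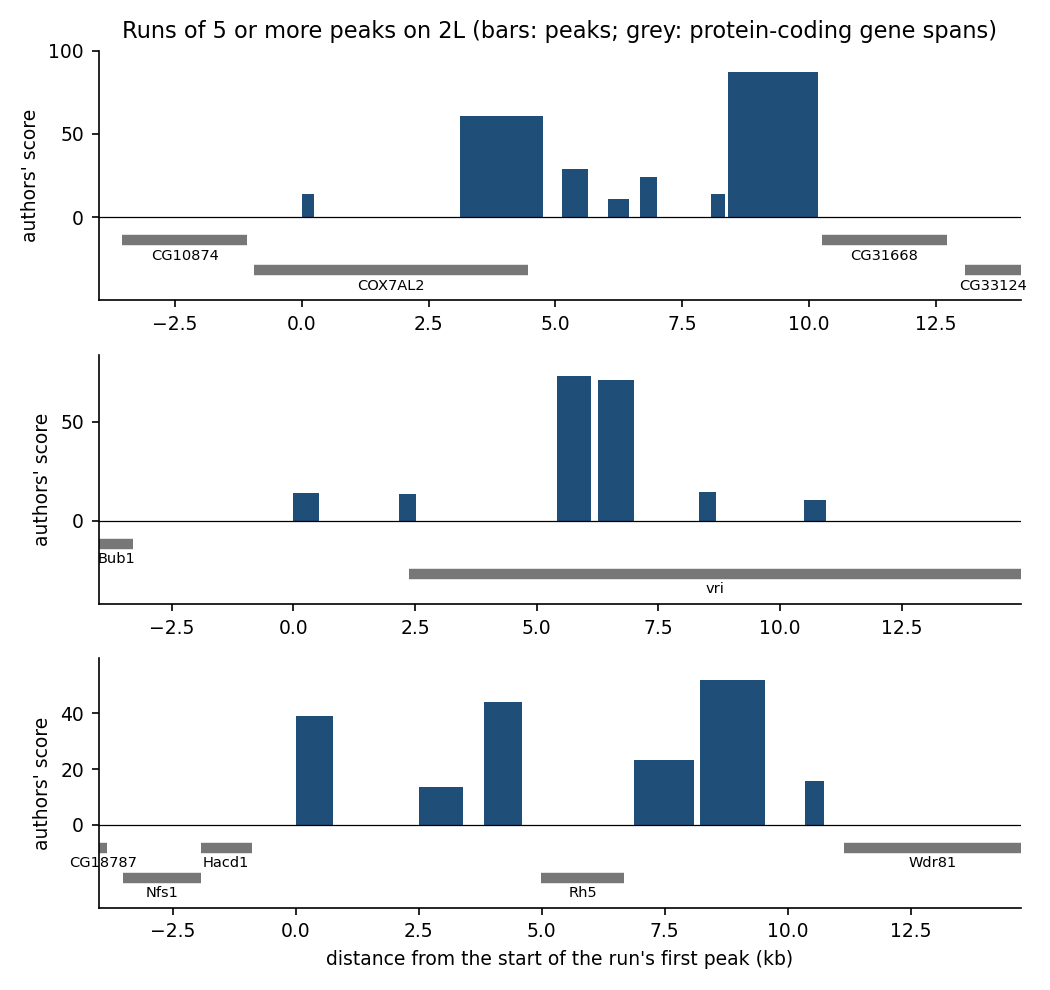
The 3 runs of 5 or more 2L peaks, from top to bottom at COX7AL2, vri and Rh5, with distance from the run's first base in kb (horizontal) and the authors' score (vertical). Each bar is 1 peak at its true width, and grey bars below are protein-coding gene spans from the release 6 table. The highest peak of the COX7AL2 run, 87.0, ends beside CG31668, and the Rh5 span is flanked by peaks and holds none.

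The 6 runs of 4 peaks were at spen, Snoo, brat, CG11030, the Vm26A genes and the gap between CG3473 and CG42680 in the noc to osp region. In spen, a nuclear co-repressor with RNA-binding domains, they scored 15.6, 33.4, 38.4 and 20.9 from 159101 to 166984, close to one end of the gene. In brat, a translational repressor that limits neuroblast growth, they scored 33.3, 24.6, 10.2 and 22.3 from 19154733 to 19158628 and covered 53.7% of 3.896 kb, in the middle of the gene. Those of Snoo, 9.26 to 12.3, lay far from its strong peak of 56.4.

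Relative to genes, 280 of 393 peaks (71.2%, 95% interval 66.6 to 75.5) had their midpoint in a gene span, and gene spans make up 69.3% of the arm up to its last peak. The interval of the first includes the second. For gene ends, taken over the whole arm, it did not. Of the midpoints, 141 (35.9%, 31.3 to 40.7) were within 500 bp of a gene end, where 20.45% of the bases lie. Measured from the nearest peak edge the number was 173 (44.0%). A further 166 peaks (42.2%) lay deeper in genes and 54 (13.7%) between genes. Median scores were 13.6 (12.6 to 15.0) near gene ends, 13.8 (12.4 to 15.8) deep in genes and 13.3 (10.3 to 15.0) between genes, with intervals that overlap. The excess near gene ends was not shown to hold along the whole arm. In the shift check above, protein-coding gene ends gave 37 against 20 and 40 against 21 up to 8142933. Further on the numbers were 27 against 21, 16 against 14 and 20 against 14, and positions there were not borne out by that check.

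Most genes of 2L had no peak. Of all 3506 genes in the table, 309 (8.81%) had a peak in their span or within 500 bp of it, and 222 (6.33%) had one within 500 bp of an end. For the 2655 protein-coding genes these shares were 9.68% and 6.4%. They depended on length. A peak was found at 3.14% of protein-coding genes with spans up to 2 kb, 6.96% from 2 to 5 kb, 21.9% from 5 to 20 kb, 35.9% from 20 to 50 kb and 47.2% above 50 kb. Genes holding a peak midpoint had a median span of 13.7 kb, against 1.99 kb for all protein-coding genes. Per Mb of span the density was 7.55 peaks in the shortest class, 22.9 from 5 to 20 kb and 14.0 above 50 kb, so that the longest genes were not the densest.

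13 genes held 4 or more peak midpoints. After Samuel with 10 came Snoo, brat and vri with 6 each. B4, CG42238, spen and the lncRNA let7C held 5. CG11030, crol, kis, osp and tai held 4. The let7C transcript, which is the precursor of let-7 and its clustered microRNAs and is induced at the end of larval life, held scores of 24.9, 16.8, 16.6, 15.8 and 21.3 in 17.4 kb. B4 had its highest scores, 41.5 and 52.3, in mid-gene. In kis, a chromodomain remodeller of the trithorax group, scores were 13.0, 16.7, 10.5 and 17.3. For its span vri was denser than the others with 5 or more peaks except let7C, with 26.9 per 100 kb against 28.7 for let7C and 18.6 for Samuel.

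**Figure D4:**
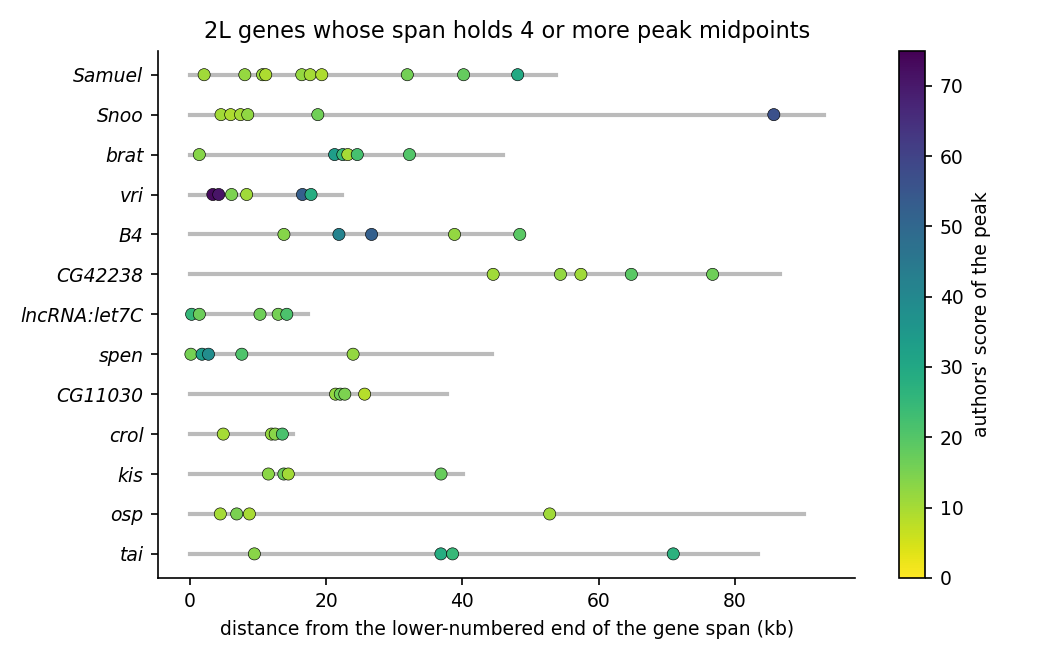
Position of each peak midpoint along the 13 genes of 2L that hold 4 or more (horizontal axis, kb from the lower-numbered end of the gene span, grey line the span), coloured by the authors' score. The vri peaks include 73.0 and 71.1 near one end, while the 10 peaks of Samuel stay at or below 29.6.

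To see which kinds of gene the peaks fell on, 11 lists of genes with known roles were counted, with 130 members on 2L among the protein-coding genes. 51 of these (39.2%) had a peak in the span or within 500 bp, beside the 9.68% of all protein-coding genes, and 32 (24.6%) had one within 500 bp of an end, beside 6.4%. List genes are long, with a median span of 12.4 kb. Among genes of 5 kb or more the numbers were 42 of 89 list genes (47.2%) and 166 of 614 protein-coding genes (27.0%). No test was made of these shares, and the lists overlap in members. The lists were drawn up with earlier results of these data known, and the limit of 5 kb was set after seeing the data. The shares are therefore a description and not independent support for a preference of the peaks.

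Of 10 nuclear receptors and ecdysone or juvenile hormone genes, called hormone genes below, 7 had a peak. Among those of 5 kb or more it was 7 of 9 (77.8%), beside 9 of 12 (75%) of the other developmental factors, 5 of 8 (62.5%) of the Wnt, TGF-beta and hedgehog list, 8 of 13 (61.5%) of the zinc finger genes and 6 of 10 (60%) of the Hippo, Notch, Toll and JNK list. The remaining lists had 25 to 50% at that size, beside 27.0% of all protein-coding genes. vri, tai, crol and Kr-h1 count both as hormone genes and in a transcription factor list. Peaks per Mb of span gave another order. The hormone genes had 87.8 from 21 peaks, of which vri held 6 and crol and tai 4 each. The larval products had 76.1 from 4 peaks and the cell cycle genes 63.3 from the 6 peaks of brat alone. The axon genes had 5.94, against 17.3 for all protein-coding genes. vri and crol are given above. tai, the co-activator of the ecdysone receptor, held scores of 13.4, 28.5, 24.7 and 27.1 over 83.4 kb. E23, an ecdysone-induced ABC transporter, held 31.1, 14.0 and 8.21. Hr39, a nuclear receptor, held 17.5 and 38.7, the stronger from 21250603 to 21251161. Kr-h1, the juvenile hormone effector, had 27.5 and 29.0, and Hr38, the NR4A receptor, a single weak peak of 7.88 from 20700995 to 20701194. Ptth, which encodes the hormone that triggers ecdysone release, the sterol transporter gene Npc1a and the nuclear receptor Hnf4 had none.

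Among signalling genes, 7 of 10 of the Wnt, TGF-beta and hedgehog list had a peak, 6 of them at a gene end. Over all protein-coding genes the shares were 9.68% with a peak and 6.4% with one at an end. At spans of 5 kb or more, 27.0% of all protein-coding genes had a peak. wg, the founding Wnt ligand, had a peak of 39.6 within 500 bp of an end, from 7306788 to 7307211, and its neighbour Wnt6 one of 14.6, while Wnt4 and Wnt10 of the same cluster had none. Ligands dpp and daw and the receptor tkv have been described. The hedgehog pathway genes smo and ihog, a transducer and a co-receptor, had weak peaks of 11.01 and 8.64. Mad, the transcription factor downstream of Dpp, had none. In the list of Hippo, Notch, Toll and JNK genes 6 of 12 (50%, 25.4 to 74.6) had a peak, and 5 of these scored below 14. They were ex (8.51), Traf4 (11.5), numb (13.0), kuz (9.73) and Dif, while the giant cadherin gene ft scored 21.4. Receptor tyrosine kinase and insulin genes had 3 of 10 (30%, 10.8 to 60.3), namely aop, Pi3K21B (15.7) and kek1 (12.1).

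Of transcription factors, zinc finger genes had 11 of 20, 9 of them at a gene end, where all protein-coding genes had 9.68% and 6.4%. Beyond salm, noc, elB, Kr-h1 and crol the 11 included ush, the GATA co-factor gene, with 13.1, 16.7 and 36.4. They also included the trunk and proximal leg gene tsh, with a peak of 993 bp and 25.7 from 21828144 to 21829136. The tsh paralogue tio had 7.88 and 11.2, the gut and leg joint gene bowl 21.3 and 17.6, its relative odd 13.6, and the snail family gene esg 10.6. The family members sna and wor, and drm and sob beside odd, had none. The other developmental factors had 9 of 23 (39.1%, 22.2 to 59.2), beside the same 9.68%, or 27.0% of protein-coding genes of 5 kb or more. In that list dac, a retinal and leg determination gene, had 32.1 at an end from 16485700 to 16486503, and bun held 17.2, 15.6 and 12.5. Weak peaks of 8.65 and 8.91 lay in eya, another retinal determination gene, and the neuropeptide cell gene dimm. Among the 14 without a peak were the glial gene gcm, the proneural gene amos and the gonad gene tj.

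Homeodomain genes, the class of Abd-B itself, had peaks at 2 of 10, nub and the LIM gene tup (10.0 and 15.9), a share whose interval (5.67 to 51.0%) includes the 9.68% of all protein-coding genes. al, prd, cad, Gsc, Lim3, bsh, H2.0 and pdm2 had none, although pdm2 is the neighbour and close paralogue of nub. The chromatin list had 4 of 9, namely kis, crp, Df31 (24.9) and the Polycomb gene esc (11.2), whose peak also lay in Pde1c. Since crp encodes a bHLH factor, the count without it is 3 of 8. The deacetylase gene Sirt1, listed under its older name Sir2 and left out because another gene shares that name, had a peak of 14.8 at an end from 13165598 to 13166028, and with it the count is 5 of 10.

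The last 3 lists had shares of at most 30%. Axon guidance and adhesion genes, with a median span of 42.1 kb, had 5 of 19. They were beat-Ib, with the highest score of the list at 52.3, Fas3, Lar, robo2 and kek1, and among those without a peak were CadN, CadN2, Sema1a and fred. All 19 are over 5 kb long, and 27.0% of all protein-coding genes over that limit had a peak. Most of that pool is shorter than the list, with 430 of its 614 genes at 5 to 20 kb. The shares were 35.9% for genes of 20 to 50 kb and 47.2% above 50 kb. The list's 26.3% lay below both, but its interval (11.8 to 48.8%) includes them. Its 5.94 peaks per Mb of span lay below the 19.9 and 14.0 of those classes. These differences were not tested. Cell cycle and growth genes had 1 of 9 (11.1%), brat, a share near the 9.68% of all protein-coding genes.

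Products typical of larval tissues had a peak at 3 of 10, beside 9.68% of all protein-coding genes. None had a peak near a gene end, which in 10 genes says little beside the 6.4% of all protein-coding genes. The 3 with a peak were the salivary glue gene Sgs1 (26.5), Gpdh1 and the peptidase gene Ance (8.65). The myosin heavy chain gene Mhc, the larval serum protein gene Lsp1beta, the fat body gene Fbp2, Adh, Ddc, amd and TpnC25D had none. At unknown depth, a gene without a peak is not shown to be unbound.

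**Figure D5:**
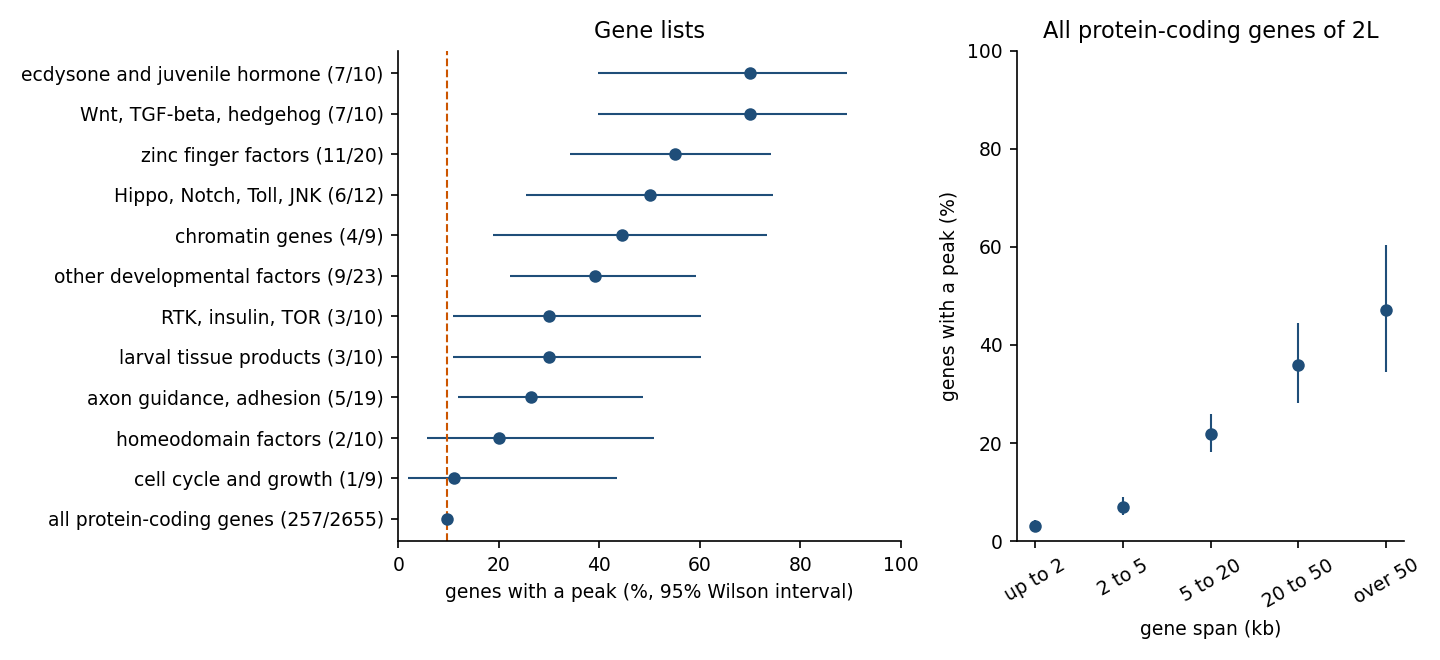
Left, percent of the 2L members of each list with a peak in the gene span or within 500 bp, with 95% Wilson intervals for counting error, and the share of all protein-coding genes, 9.68%, as the last row and dashed line. Right, the same percent for all protein-coding genes by span, from 3.14% up to 2 kb to 47.2% above 50 kb.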

How the data were processed

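The 2 ChIP and 2 input libraries of Abd-B-GFP larvae were deposited as 1 peak list without values per library. The list is in GFF3 form on FlyBase release 5, per the file headers, and its source column names MACS. The submitters' processing notes name the build BDGP5 and the tools MACS2, BWA and CASAVA (versions 1.7.0.3 and 1.7.0.2). The sources used here do not give parameters, the control or whether replicates were pooled. All library titles carry the term vMock, but the libraries are labelled only as input or ChIP. The authors deposited 1 score per peak, with no scale named, and the peak's start and end, the other deposited values. Each start was taken to be 0-based and raised by 1, which makes the shortest peak 200 bp.

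Counting used pandas 2.3.3 and numpy 2.4.6 under Python 3.11.15, and intervals scipy 1.17.1. Runs are peaks whose gaps are at most 5 kb, and windows count midpoints. Genes on 2L came from the RefSeq table of release 6. Of 133 listed symbols, 130 were used, lid under its current name Kdm5. Asf1 is not on 2L, and Sir2 and Tor, older names that genes on 2L (Sirt1 and mTor) share with genes elsewhere, were left out of the main counts. Gene starts had been planned, but the table has no strand, so both ends were used. Promoter motifs and sequences were not analysed here, as no sequence of release 5 was used. Named are the 10 highest-scoring and 3 widest peaks, runs of 4 or more, genes with 4 or more peaks, and list members. Other peaks and genes of the fullest windows were chosen after their values were seen. The arm, the lists and the rules were chosen with earlier results of these data known. Counting scripts were tested on simulated data. Replicate libraries give no p-value here, and intervals cover counting error only and take peaks and genes as independent.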

Additional observations from a re-analysis of the deposited data

How the results depend on the processing

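No paired analysis was possible because the list holds no value per library, and no replicate could be left out for the same reason. Motif alternatives were not run. The median width was 445.5 and 529 bp in the 196 and 98 highest-scoring peaks. With windows moved by 0.5 Mb the 3 fullest held 19.3% of the peaks. The share with a near neighbour was 32.3% with gaps up to 2 kb, 57.0% up to 10 kb, 29.6% in either the 196 or the 98 highest-scoring, and 33.5% with peaks under 1 kb apart merged. The longest run was 11 peaks with gaps up to 10 kb and 4 in the 98 highest-scoring. The share of peaks near a gene end was 33.1% at 250 bp, 54.5% at 1000 bp, 35.9% from midpoints and 53.8% of the peaks up to 8142933, where the shift count was highest at or beside no shift. That last share partly follows from choosing the part by its peaks near gene ends, and is no separate support. Any overlap put 78.6% of peaks in genes. The share of genes with a peak near an end was 4.62% at 250 bp, 8.53% at 1000 bp, and 3.25% and 1.57% with the 196 and 98 highest-scoring peaks. With the 196, 23.8% of list genes had a peak, against 4.97% of protein-coding genes, and up to 8142933 45.3% of 53 against 12.0% of 1009. That part of the arm, the limit of 5 kb on spans and the use of both gene ends were chosen after seeing the data. For single lists at 250 bp, at 1000 bp or with the 196 peaks, 29 of 33 counts stayed within 1.5 times, and 4 were lower, all with the 196 peaks. The Hippo, Notch, Toll and JNK list fell from 6 to 1 and the axon list from 5 to 2. Zinc finger genes fell from 11 to 7 and the other developmental factors from 9 to 5. The distances of 250 and 1000 bp change only the margin around a span, so they could move these counts little. Reading Sir2 as Sirt1 and Tor as mTor gave 39.4% of 132 list genes and leaving out crp 38.8% of 129, both also chosen after seeing the data.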
